A study of Mus musculus with 72 samples.

Results

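The 46 genes described here are imprinted genes of the mouse. They were taken by name from a list and belong to the series because their symbols stand in all 7 count tables, 46 of the 35976 gene symbols of 6 tables and of the 25239 symbols of the table for E18.5 testis. The list itself was set by gene names and not by a threshold on measured values. By the parental copy that is known to be used, 23 are maternally and 22 paternally expressed, and the copy in use at Gnas depends on promoter and tissue. For most of the maternally expressed genes this is known only in 1 tissue or stage, as a bias or for some transcripts. The same holds for Ddc and Inpp5f among the paternally expressed ones. For all 46, expression after in vitro fertilization (IVF) was compared with that after natural conception within each tissue and age, and levels were followed from fetal to adult testis and into liver and ovary.

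The study asked whether IVF leaves marks on the reproductive organs of male offspring and on their own offspring, and RNA-Seq gave 72 libraries in 14 groups. F1 fetuses and males came from SJL/B6 males heterozygous for GFP and CF-1 females. Naturals were conceived by mating. IVF animals came from eggs of superovulated CF-1 females that were fertilized in HTF medium, cultured in KSOM with amino acids to the blastocyst stage and transferred without surgery into CF-1 recipients. The F1 groups were E18.5 testis (4 naturals, 6 IVF), 12-week testis (5 and 5) and 39-week testis (4 and 6), and the adult F1 cohorts were delivered by cesarean section and fostered. The F2 groups came from 12-week F1 males, IVF or natural, that were paired with CF-1 wild-type females, so every F2 animal was itself conceived naturally and "IVF" there names the sire. F2 tissues were taken at 12 weeks, namely testis (5 naturals, 7 IVF), male liver (5 and 5), female liver (5 and 6) and ovary (4 and 5). The samples were bulk tissue, so fewer cells of a type and less RNA per cell cannot be told apart in anything below. p-values measure the spread between these libraries, and nothing in the labels says which animals were littermates.

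Imprinted genes are transcribed mainly from 1 parental copy, because DNA methylation set in the egg or the sperm marks the parental copies differently. The marked copy can be the silent or the active one. Most lie in clusters around an imprinting control region. Within a cluster a long noncoding RNA and its protein-coding neighbours are often used from opposite parents, as for H19 and Igf2, Meg3 and Dlk1, Airn and Igf2r, and Kcnq1ot1 and Cdkn1c. Many act on growth of the fetus and placenta, paternally expressed genes largely promoting it and maternally expressed genes largely restraining it, and many fall silent in adult organs. The marks must survive the days when the embryo is held in culture after IVF, which is why these genes are often examined in IVF offspring. Read counts do not separate the parental copies, so what follows is total expression.

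Library depth ranged from 543745 to 90441392 counts. At E18.5 the naturals had 2904727 to 4869139 counts and IVF 8500054 to 15745480, so depth and conception cannot be told apart there. Markers of the labelled tissue were present throughout. The summed level of 8 spermatid markers was 4.06 to 8.99 CPM in natural testes at E18.5 and 12954 to 15017 CPM at 12 weeks, 8 hepatocyte markers summed to 80734 to 106474 CPM in natural male livers, and 8 oocyte markers to 287 to 338 CPM in natural ovaries. CPM are counts scaled to the library total after TMM normalization within a table, as edgeR gives them. Natural library 1 at E18.5 held hepatocyte markers at 518 CPM against 13.3 to 39.0 CPM in the other 9, and IVF library 3 of the male livers had the 543745 counts. Natural male livers 1, 4 and 5 further held spermatid markers, which summed to 75.99, 14.5 and 112 CPM there and to at most 3.67 CPM in the other male livers, and their part in the male liver results was not tested. A gene is called changed below where edgeR's quasi-likelihood test gave an adjusted p under 0.05 and the change passed 1.5-fold.

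Across the 7 natural groups, fetal testis was the main site of expression of the imprinted genes. Per kilobase of transcript, 31 of the 46 had their highest mean level in E18.5 testis, 5 in ovary, 4 in 12-week testis, 2 in F2 testis, 2 in male liver, and 1 each in female liver and 39-week testis. These levels are scaled within each table and not between tables, and the scaling can move a gene's place. Nap1l4, counted for E18.5, was 0.50 ± 0.09 higher at 12 weeks on the log2 scale in the joint fit described next. H19, a noncoding RNA that restrains growth, led at E18.5 with 796 ± 110.4 CPM per kilobase (SD, n = 4). There it was followed by Gnas, the stimulatory G protein alpha subunit locus, at 346 ± 8.05, Cd81, a tetraspanin, at 270.4 ± 22.4, Dlk1, a transmembrane Notch-like protein that holds back differentiation, at 250.2 ± 23.4 and Igf2, the fetal growth factor, at 220.1 ± 89.9 CPM per kilobase. In adult ovary Gnas (249.99 ± 22.8) and Cd81 (237 ± 16.6 CPM per kilobase, n = 4) led, and in male liver Cd81 (126 ± 5.80) and Gnas (109.97 ± 6.82 CPM per kilobase, n = 5) did so as well. The highest of the liver-biased members were Slc22a18, an organic cation transporter-like protein, at 48.1 ± 2.32, and Ddc, the enzyme that makes dopamine and serotonin from their precursors, at 34.4 ± 7.50 CPM per kilobase in male liver (n = 5). In the order of the 7 groups, between 2 and 6 of the 6 steps from a group to the next did not exceed the spread between libraries, depending on the gene. Snrpn, which encodes a small nuclear ribonucleoprotein of neurons, was at 0.411 CPM or less in every library and too low for a test in every comparison.

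**Figure D1:**
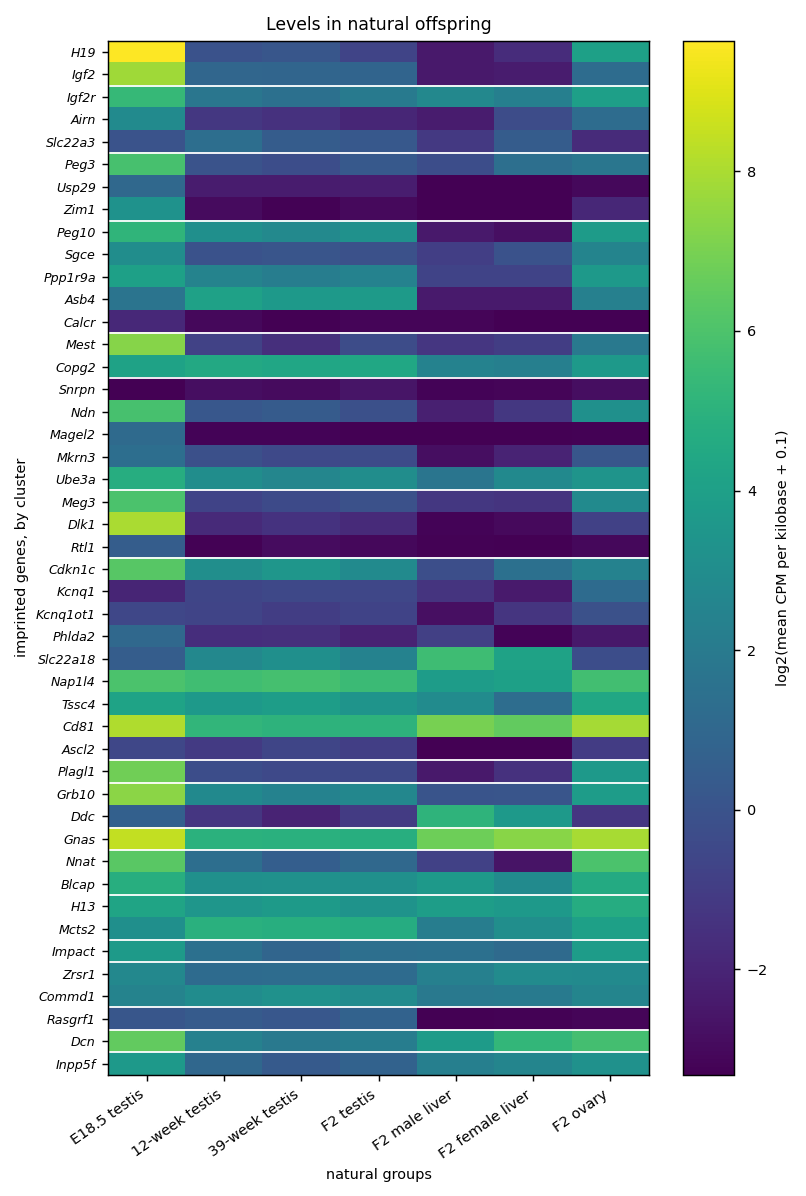
Level of the 46 imprinted genes (rows, ordered by cluster) in the 7 groups of naturals (columns), colour giving log2 of the mean CPM per kilobase of transcript plus 0.1. The column for E18.5 testis is the brightest for 31 of the 46 genes, and the adult testis and liver columns are dark for most growth-related members.

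Between E18.5 and 12 weeks the imprinted genes as a group fell in natural testis. Of 43 tested, 30 were lower and 7 higher at 12 weeks, where 35.7% of all 17009 genes tested were lower and 41.7% higher (77.4% in either direction). The median log2 change was -1.95 over the 43 members and 0.15 over all genes tested. With DESeq2's size factors the latter was 0.26 and no member called changed direction. In CPM as normalized within each table, without scaling between the ages, changes lay a median of 0.81 lower over the members tested. Of the 21 paternally expressed members tested, 18 fell and 2 rose (median -3.50), and of the 21 maternally expressed members 11 fell and 5 rose (median -0.79). Most of the latter, such as Slc22a3, Cd81 and Dcn, are known as maternal only in 1 tissue or stage, as a bias or for some transcripts. Among the paternally expressed members such a limit holds for Ddc and Inpp5f only. Parent of origin and this unlike makeup of the 2 sets cannot be told apart. The cell makeup moved along with age, since the sum of 6 stromal markers was 14953 to 17328 CPM at E18.5 and 83.9 to 125 CPM at 12 weeks while the spermatid sum rose as given above, and their part in the changes was not tested. Age and the sequencing of its table cannot be told apart.

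Dlk1 and H19 fell most among the members tested. Dlk1 stood at 1241, 1229, 1005 and 1181 CPM in the 4 fetal naturals. At 12 weeks it was at 1.19, 0.809, 1.15, 0.329 and 0.865 CPM, from 6 to 24 counts per library, and the log2 change was -9.57 ± 0.18 (adjusted p = 5.94e-17). H19 went from 2169.6, 1743, 1569.9 and 1796 CPM to 1.34, 1.77, 2.05, 1.97 and 2.72 CPM in the 5 adults (-9.06 ± 0.16, adjusted p = 3.97e-17). For both genes the age groups were far apart, with every fetal library above every adult library. Igf2 read 1239, 404, 1229.8 and 1284 CPM in the fetal naturals and 7.17, 9.21, 9.09, 7.67 and 10.6 CPM in the adults. The lowest fetal library still lay far above the highest adult library, and the change was -6.09 ± 0.37 (adjusted p = 2.47e-07). Meg3, the maternally expressed noncoding RNA beside Dlk1, stood at 113, 1131, 1185 and 1169 CPM in the fetal naturals, of which the first is the library with hepatocyte markers, and at 8.70, 7.79, 7.36, 5.20 and 8.40 CPM at 12 weeks (-6.09 ± 0.71, adjusted p = 7.31e-05). To show the kind of promoter these genes of falling level have, RefSeq windows from 250 bases before to 50 bases after an annotated start are printed 5′ to 3′ on build GRCm38.p6, with CG dinucleotides, the sites of DNA methylation, in capitals. The Igf2 window (chr7:142658755-142659054, minus strand) is the one of its 4 windows with the most CG, 24. The Meg3 window (chr12:109540746-109541045, plus strand, 1 of 2) holds 13 CG, and that of Dlk1 (chr12:109452573-109452872, plus strand) 9.
Igf2: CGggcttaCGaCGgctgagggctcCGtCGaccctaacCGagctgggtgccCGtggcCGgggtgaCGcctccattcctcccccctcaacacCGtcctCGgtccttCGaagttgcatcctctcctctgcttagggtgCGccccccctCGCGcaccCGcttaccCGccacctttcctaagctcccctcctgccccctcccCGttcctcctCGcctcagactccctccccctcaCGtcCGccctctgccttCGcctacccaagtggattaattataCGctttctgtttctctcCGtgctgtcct
Meg3: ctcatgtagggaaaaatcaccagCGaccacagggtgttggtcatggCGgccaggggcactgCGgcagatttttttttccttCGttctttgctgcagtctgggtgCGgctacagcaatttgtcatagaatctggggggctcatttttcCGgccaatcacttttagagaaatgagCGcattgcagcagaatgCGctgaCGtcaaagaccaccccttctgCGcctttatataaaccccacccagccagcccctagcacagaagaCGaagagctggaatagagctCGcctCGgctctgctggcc
Dlk1: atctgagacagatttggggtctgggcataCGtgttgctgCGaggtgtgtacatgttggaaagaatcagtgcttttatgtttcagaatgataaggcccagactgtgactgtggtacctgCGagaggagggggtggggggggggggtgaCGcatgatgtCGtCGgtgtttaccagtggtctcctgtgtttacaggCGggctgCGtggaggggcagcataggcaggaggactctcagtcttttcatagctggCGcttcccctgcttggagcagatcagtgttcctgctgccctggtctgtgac

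Over all 37 members with an entry, 55 such windows held a median of 15 CG, against 7 over the 32851 windows of 27025 genes. The hexamer TGCCGC, the core that ZFP57 reads on methylated imprinting control regions, was searched on both strands, where it reads GCGGCA on the other. It stood in 13 of the 55 windows (23.6%) and in 3813 of all windows (11.6%), or in 12 of the 37 genes (32.4%) and 13.1% of all genes. The hexamer holds a CG itself, and windows of like CG content were not compared, so its share cannot be told apart from CG content. Some windows of the same gene overlap, as for Mest, and the windows were taken as promoters, not as imprinting control regions. The Meg3 window above holds 1 match, and the printed Igf2 and Dlk1 windows hold none. No promoter entry was used for H19, Sgce, Peg10, Cdkn1c, Rtl1, Kcnq1, Nap1l4, Dcn and Impact.

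Members of other clusters fell as well. Mest, a hydrolase-like protein of growing mesoderm, fell by 7.55 on the log2 scale (SE 0.14), Plagl1, a zinc finger factor that switches on other imprinted genes, fell by 6.49 (SE 0.13) and Peg3, a large zinc finger protein of maternal behaviour and growth, fell by 5.25 (SE 0.15). Grb10, an adaptor that dampens insulin and IGF receptor signalling, fell by 3.79 (SE 0.08). Igf2r, the receptor that clears IGF2, fell by 2.83 (SE 0.12), and Airn, the RNA that crosses its promoter, fell by 3.63 (SE 0.37). Cdkn1c, the cyclin-dependent kinase inhibitor p57, fell by 2.38 (SE 0.12). Among genes of the Snrpn and Ube3a region, Magel2 (-6.69 ± 0.71), Ndn (-5.01 ± 0.26), Ube3a (-0.96 ± 0.11) and Mkrn3 (-0.86 ± 0.37) were lower at 12 weeks. The call of Mkrn3 held in 3 of 9 fits with a library left out, and that of Ddc (-1.43 ± 0.49) in 8 of 9, being lost without fetal natural library 3 (adjusted p = 0.0989). Further members that fell were Zim1 (-7.47 ± 0.21), Rtl1 (-6.85 ± 0.67), Nnat (-4.21 ± 0.14), Usp29 (-3.50 ± 0.34), Dcn (-3.41 ± 0.14), Gnas (-2.68 ± 0.08), Sgce (-2.41 ± 0.17), Cd81 (-2.08 ± 0.09), Inpp5f (-1.95 ± 0.15), Impact (-1.50 ± 0.16), Peg10 (-1.22 ± 0.13), Blcap (-0.85 ± 0.13), Ppp1r9a (-0.79 ± 0.12) and Zrsr1 (-0.76 ± 0.14).

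The 7 members that rose were Asb4, a subunit of a ubiquitin ligase complex (3.29 ± 0.21), Slc22a18 (3.29 ± 0.45), Mcts2, a retrogene inside H13 (2.57 ± 0.21), the potassium channel gene Kcnq1 (2.55 ± 0.71), Commd1, a copper and NF-kappa-B regulator (1.34 ± 0.14), Copg2, a subunit of Golgi coat vesicles (1.15 ± 0.10), and Rasgrf1, a Ras exchange factor (1.10 ± 0.24). Kcnq1ot1, the paternal noncoding RNA within Kcnq1, was not called at 0.65 ± 0.41. It read 18.8, 110.2, 44.9 and 40.6 CPM in the fetal naturals, and without natural library 2, the highest, its change was 1.32 with an adjusted p of 6.03e-05. Members that overlap another gene on the genome, such as Mcts2 and H13, Airn and Igf2r, Kcnq1ot1 and Kcnq1, Nnat and Blcap, Zrsr1 and Commd1, and Mest and Copg2, can share reads. The strand setting of the counting is not given in the sources used here. Mcts2 and H13 lie on the same strand, so no strand setting would separate their reads. From 12 to 39 weeks, 0 of 38 members tested were called, by edgeR or DESeq2, beside 0.00499% of all genes. At an unadjusted p under 0.05 there were 6 (Mest, Nnat, Asb4, Ube3a, Nap1l4 and H13). The fixed members, 12 genes for which values are given in every comparison where they could be tested, changed by 0.27 ± 0.31 for H19, 0.02 ± 0.20 for Igf2, -0.24 ± 0.17 for Igf2r, -0.22 ± 0.38 for Peg3, -0.98 ± 0.43 for Mest, 0.41 ± 0.27 for Meg3, 0.61 ± 0.42 for Dlk1, 0.45 ± 0.21 for Cdkn1c, -0.27 ± 0.32 for Kcnq1ot1, -0.14 ± 0.47 for Plagl1 and -0.32 ± 0.16 for Grb10, with adjusted p from 0.326 to 0.981.

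**Figure D2:**
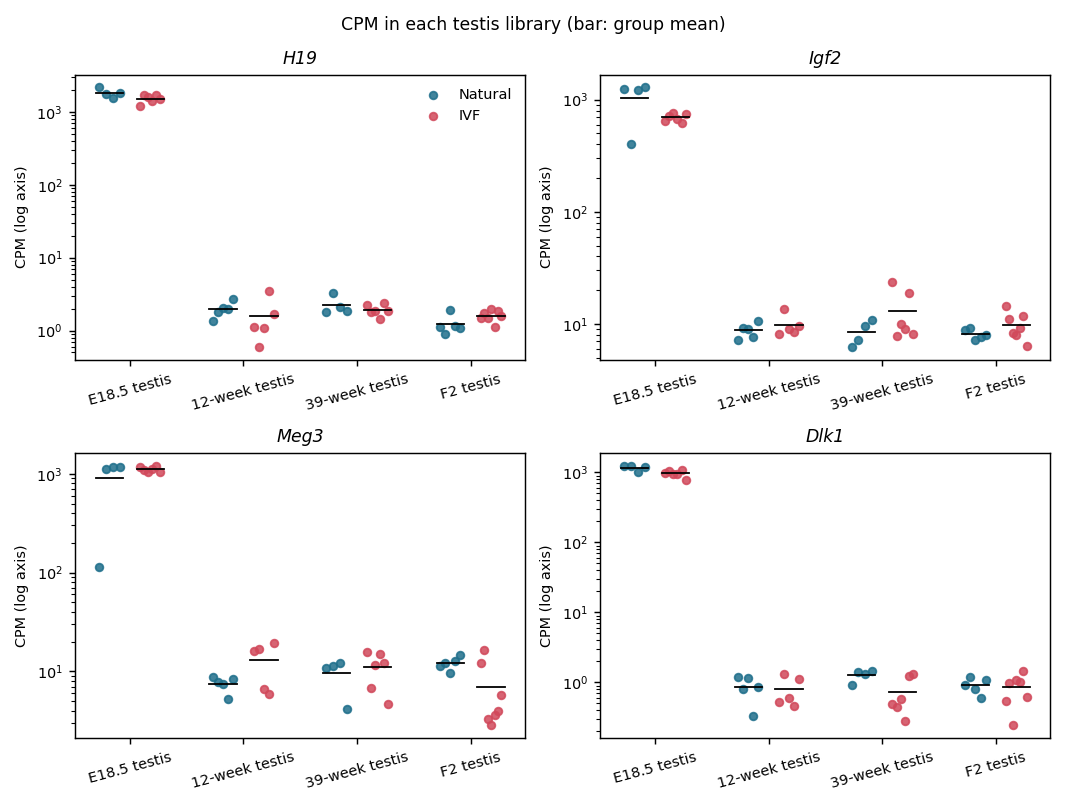
CPM of H19, Igf2, Meg3 and Dlk1 in every testis library on a log axis, naturals and IVF side by side at E18.5, 12 weeks, 39 weeks and in F2, with bars at group means. The fetal libraries lie far above the adult ones, and natural library 1 (Meg3, 113 CPM) and natural library 2 (Igf2, 404 CPM) lie below their E18.5 groups.

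Adult gonads and livers of natural F2 animals differed at most members, as they did at most genes. In testis 20 of 39 members were higher and 11 lower than in male liver, beside 55.4% and 31.3% (together 86.7%) of all genes, and in ovary 17 of 38 were higher and 10 lower than in female liver, beside 42.6% and 29.5% (together 72.1%). Median changes were 0.61 over the members and 1.25 over all genes for testis, and 0.23 and 0.40 for ovary. With DESeq2's size factors the medians of all genes were 1.61 and 0.58, and Sgce, Kcnq1 and Commd1 (testis) and Copg2 and Kcnq1ot1 (ovary), none of them called, changed sign. In CPM without scaling between the tissues the changes lay a median of 1.03 higher for testis and 1.56 higher for ovary, and 6 members called lower in ovary (Peg3, Ube3a, Gnas, Commd1, Dcn and Inpp5f) had higher mean CPM there, so their direction depends on the scaling.

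Members that stood out in gonads under either scaling included Peg10, a retrotransposon-derived gene needed in placenta, at 5.66 ± 0.20 in testis and 6.03 ± 0.35 in ovary, and Asb4 at 6.14 ± 0.30 and 4.05 ± 0.55. Igf2 was higher by 3.28 ± 0.30 in testis and 2.59 ± 0.60 in ovary. H19 was higher by 1.93 ± 0.58 and 4.88 ± 0.73, and Dlk1 by 3.56 ± 0.59 and 4.08 ± 1.07. Levels of Dlk1 were low, at a mean of 0.910 CPM in testis and 2.21 CPM in ovary against 0.0417 and 0.113 CPM in male and female liver. H19 was at 1.23 CPM in testis and 38.1 CPM in ovary against 0.191 and 0.489 CPM. Ovary further held more Nnat, a small membrane protein of endocrine cells (7.33 ± 0.40), Plagl1 (4.00 ± 0.37), Ndn (3.16 ± 0.41), Meg3 (2.94 ± 0.34), Grb10 (2.35 ± 0.35) and Mest (1.55 ± 0.43). Testis held more Kcnq1ot1 (2.42 ± 0.18), Cdkn1c (2.25 ± 0.18), Plagl1 (1.68 ± 0.41) and Grb10 (1.67 ± 0.13), while Meg3 (0.28 ± 0.16), Mest (0.09 ± 0.29) and Peg3 (-0.38 ± 0.16) were not called there. With DESeq2's size factors Meg3 was called in testis at 0.64 ± 0.16. Some genes had no count in the livers, and against 3 counts over the group Rasgrf1 was at least 257-fold, Usp29 at least 27.2-fold and Ascl2 at least 23.7-fold higher in testis, and Zim1 at least 27.8-fold higher in ovary, in CPM. Liver held more Ddc (-7.52 ± 0.24 in testis against liver, -6.86 ± 0.44 in ovary against liver) and Slc22a18 (-4.20 ± 0.08 and -6.25 ± 0.98). Igf2r was lower in testis than in male liver (-1.80 ± 0.09). In ovary Igf2r (0.21 ± 0.14), Cdkn1c (-0.51 ± 0.31) and Kcnq1ot1 (-0.03 ± 0.29) were not called, and Peg3 was at -1.22 ± 0.23.

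The remaining members called higher in testis than in male liver were Slc22a3 (0.61 ± 0.21), Ppp1r9a (2.31 ± 0.13), Copg2 (1.01 ± 0.07), Ndn (1.62 ± 0.35), Mkrn3 (2.99 ± 0.37), Nap1l4 (0.66 ± 0.09), Nnat (1.07 ± 0.31) and Mcts2 (1.54 ± 0.14). The call of Slc22a3, near the fold limit, was lost without testis library 1 (0.49, adjusted p = 0.0371) or liver library 5 (0.58, adjusted p = 0.0217). Those lower in testis were Cd81 (-2.97 ± 0.09), Gnas (-3.03 ± 0.08), Blcap (-1.53 ± 0.10), H13 (-1.59 ± 0.11), Impact (-1.10 ± 0.12), Zrsr1 (-2.17 ± 0.12), Dcn (-2.66 ± 0.13) and Inpp5f (-2.57 ± 0.10). In ovary the remaining higher members were Sgce (1.19 ± 0.29), Ppp1r9a (3.07 ± 0.22), Kcnq1 (2.56 ± 0.68), Tssc4 (1.56 ± 0.28) and Impact (1.11 ± 0.19), and the lower ones Slc22a3 (-4.16 ± 0.56), Ube3a (-0.95 ± 0.16), Gnas (-0.94 ± 0.23), Zrsr1 (-1.60 ± 0.20), Commd1 (-1.01 ± 0.15), Dcn (-1.02 ± 0.15) and Inpp5f (-0.91 ± 0.16). Testis and male liver, like ovary and female liver, came in separate tables, so tissue and sequencing cannot be told apart.

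In the fetal testis no imprinted gene passed the threshold after IVF. Of 44 members tested at E18.5, 0 were called by edgeR and 0 by DESeq2, beside 0.221% of 15406 genes (0.136% higher and 0.0844% lower). At an unadjusted p under 0.05 there were 12 members, against 17.7% of all genes. The log2 change from naturals to IVF had a median of -0.04 over the members, and 38 of the 44 lay within 0.5 of 0.

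The test of Igf2 turned on 1 library. Its naturals read 1239, 404, 1229.8 and 1284 CPM and the 6 IVF testes 618 to 756 CPM with a median of 693. Natural libraries 1, 3 and 4 lay above every IVF library and natural library 2 below all of them, so the groups overlapped through 1 library. The change was -0.58 ± 0.28, adjusted p = 0.311 in all 10 libraries, and -0.85 ± 0.07, adjusted p = 0.000138 without that library, past both limits. H19, its maternally expressed neighbour, read 2169.6, 1743, 1569.9 and 1796 CPM in the naturals and 1218 to 1733 CPM with a median of 1559 in IVF. Natural libraries 1, 2 and 4 lay above every IVF library and natural library 3 within them, and the change was -0.25 ± 0.10, adjusted p = 0.218.

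Dlk1 and Meg3 share a cluster on chromosome 12. Dlk1 read 1241, 1229, 1005 and 1181 CPM in the naturals and 784 to 1089 CPM with a median of 973 in IVF (-0.26 ± 0.09, adjusted p = 0.128). Natural libraries 1, 2 and 4 lay above every IVF library and natural library 3 within them. Meg3 read 113, 1131, 1185 and 1169 CPM in the naturals and 1042 to 1208 CPM with a median of 1109.6 in IVF. Natural library 1 stood far below all other libraries, whose ranges overlapped between the groups, and the change was 0.31 ± 0.52, adjusted p = 0.808, or -0.06 (adjusted p = 0.668) without it. In that library Rian, the next noncoding RNA of the cluster and chosen after its values were seen, was at 166 CPM against 365 to 404 CPM in the other naturals and 371 to 411 CPM in IVF. Mirg, likewise, was at 3.09 CPM against 28.3 to 32.6 CPM and 22.2 to 26.3 CPM. It is also the library with hepatocyte markers at 518 CPM, and the part of those cells in the Meg3 level was not tested.

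For the other fixed members the log2 changes at E18.5 were 0.13 ± 0.08 for Igf2r, 0.32 ± 0.08 for Peg3, -0.01 ± 0.10 for Mest, -0.04 ± 0.15 for Cdkn1c, -0.12 ± 0.39 for Kcnq1ot1, -0.05 ± 0.09 for Plagl1 and 0.15 ± 0.07 for Grb10, with adjusted p from 0.0628 to 0.973. The lowest of these p-values was that of Peg3. Its naturals read 488, 496, 599 and 443 CPM and IVF 572 to 681 CPM with a median of 635, and the ranges met only through natural library 3. DESeq2 gave Peg3 an adjusted p of 0.0109 with a change under 1.5-fold. Impact was the 1 member whose groups did not overlap, beside 6.09% of all genes. This inhibitor of the stress kinase GCN2 read 39.7, 54.0, 52.3 and 50.6 CPM in the naturals and 54.5 to 65.7 CPM with a median of 59.6 in IVF (0.28 ± 0.09, adjusted p = 0.134).

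At 12 weeks Asb4 was the 1 imprinted gene called in the F1 testis. It was lower after IVF, and it was 1 of 39 members tested where 0.174% of 20113 genes were called lower and 0.0249% higher. Asb4, a gene of the Peg10 cluster on chromosome 6 that rose with age as described above, read 56.7, 54.2, 43.5, 68.9 and 56.7 CPM in the naturals. In IVF it read 37.6, 36.2, 30.0, 46.1 and 33.6 CPM. Most naturals lay above every IVF library, and the groups overlapped through natural library 3 and IVF library 4. The change was -0.61 ± 0.12, adjusted p = 0.0269, just past 1.5-fold. With a trend of expression on GC content removed it was -0.58 (adjusted p = 0.0319), under the fold limit, and the call held in 4 of the 10 fits with a library left out. It was lost without natural library 2, 4 or 5 or IVF library 2, 3 or 5, at adjusted p from 0.0514 to 0.0976, and the changes of the 10 fits ranged from -0.71 to -0.52. By DESeq2 the adjusted p was 0.000406.

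Nnat read 2.92, 4.10, 4.29, 3.78 and 3.09 CPM in the 12-week naturals and 2.61, 0.844, 1.34, 1.62 and 2.08 CPM in IVF. Every IVF library lay below every natural one. It was the 1 member whose groups did not overlap, beside 3.07% of all genes in either direction, and the change was not called (-1.09 ± 0.28, adjusted p = 0.0813). Without IVF library 1, the highest of its group, the call was made. Meg3 split the IVF group, at 16.0, 16.6, 6.63, 5.86 and 19.2 CPM against 8.70, 7.79, 7.36, 5.20 and 8.40 CPM in the naturals. IVF libraries 1, 2 and 5 lay above all naturals and libraries 3 and 4 within their range (0.78 ± 0.33, adjusted p = 0.362). Changes of the other fixed members were -0.29 ± 0.38 for H19, 0.15 ± 0.16 for Igf2, -0.03 ± 0.10 for Igf2r, -0.34 ± 0.21 for Peg3, -0.43 ± 0.41 for Mest, -0.10 ± 0.44 for Dlk1, 0.38 ± 0.13 for Cdkn1c, -0.17 ± 0.10 for Kcnq1ot1, -0.76 ± 0.30 for Plagl1 and 0.04 ± 0.09 for Grb10, with adjusted p from 0.223 to 0.954. Over the 39 members the median was -0.02, 34 were within 0.5 of 0, and 8 had an unadjusted p under 0.05, against 12.9% of all genes.

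At 39 weeks 0 of 38 members were called by edgeR or DESeq2, beside 0.00996% of 20083 genes. Unadjusted p-values under 0.05 numbered 3, against 10.5% of all genes, and 35 members changed by less than 0.5. Nap1l4, a histone chaperone gene of the Kcnq1 cluster, read 127, 126, 124 and 135 CPM in the naturals and 81.3 to 110.1 CPM with a median of 93.9 in IVF. It was the 1 member whose groups did not overlap, beside 3.32% of all genes, and its change of -0.44 ± 0.11, adjusted p = 0.201 was not called. DESeq2 gave it an adjusted p of 0.0118 with a change under 1.5-fold. Igf2 was at 6.29, 7.15, 9.54 and 10.8 CPM in the naturals and 7.86 to 23.9 CPM with a median of 9.48 in IVF. IVF libraries 1 and 5 lay above the other 8, whose values intermingled (0.61 ± 0.33, adjusted p = 0.546). Natural library 3 was the highest of all 10 libraries for Peg3 (12.4 CPM), Plagl1 (7.63 CPM) and Kcnq1ot1 (76.5 CPM). The other fixed members changed by -0.23 ± 0.28 for H19, -0.06 ± 0.19 for Igf2r, -0.07 ± 0.42 for Peg3, 0.15 ± 0.45 for Mest, 0.20 ± 0.35 for Meg3, -0.80 ± 0.46 for Dlk1, -0.08 ± 0.23 for Cdkn1c, 0.04 ± 0.32 for Kcnq1ot1, -0.20 ± 0.48 for Plagl1 and 0.04 ± 0.16 for Grb10, with adjusted p from 0.576 to 0.977.

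In the testes of F2 males, sired by IVF or natural males, 0 of 39 members were called by edgeR or DESeq2, beside 0.914% of 21454 genes. At an unadjusted p under 0.05 there were 7, against 13.9% of all genes, and 37 of the 39 changed by less than 0.5. Meg3 again divided the IVF group. Its naturals read 11.3, 12.2, 9.55, 12.8 and 14.7 CPM. The 7 IVF testes read 12.2, 16.6, 3.25, 2.86, 3.63, 3.93 and 5.80 CPM. IVF libraries 1 and 2 lay within or above the naturals and the other 5 below all of them, and the change was -0.82 ± 0.45, adjusted p = 0.469. Without IVF library 2 it was -1.20 with an adjusted p of 0.140. Rian, chosen after its values were seen, divided likewise, at 3.31, 4.55, 1.03, 1.99, 1.11, 1.23 and 1.78 CPM in IVF against 2.55 to 3.70 CPM in the naturals. Dlk1 of the same cluster read 0.600 to 1.18 CPM in the naturals and 0.247 to 1.46 CPM with a median of 0.972 in IVF, ranges that overlapped (-0.10 ± 0.34, adjusted p = 0.932). Copg2 was the 1 member whose groups did not overlap, beside 1.93% of all genes, at 83.6, 81.2, 81.2, 85.1 and 86.2 CPM in the naturals and 66.9 to 79.0 CPM with a median of 75.95 in IVF (-0.16 ± 0.05, adjusted p = 0.134). The further fixed members changed by 0.38 ± 0.23 for H19, 0.27 ± 0.16 for Igf2, -0.07 ± 0.08 for Igf2r, -0.09 ± 0.11 for Peg3, -0.16 ± 0.23 for Mest, 0.02 ± 0.11 for Cdkn1c, -0.30 ± 0.14 for Kcnq1ot1, 0.13 ± 0.16 for Plagl1 and 0.11 ± 0.07 for Grb10, with adjusted p from 0.381 to 0.956.

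In the livers many members were called, 10 of 26 in males beside 31.1% of all genes and 12 of 31 in females beside 39.4%. In male liver 6 of 26 members tested were higher and 4 lower after IVF, beside 13.9% and 17.2% of 11973 genes. In female liver 2 of 31 were higher and 10 lower, beside 21.6% and 17.8% of 12525 genes. Groups did not overlap for 9 members in males and 11 in females, beside 27.0% and 29.4% of all genes. Of the 10 members with an unadjusted p under 0.05 in males and 16 in females, all 10 and 12 were called, and over all genes 44.5% and 55.4% had such a p. The sexes moved in opposite directions for every member called in both, which were Ube3a, Kcnq1ot1, Slc22a18, Tssc4, Gnas, Zrsr1 and Dcn.

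Properties of the libraries moved with these changes. Depth was 1 of them, at a median of 15917095 counts in male naturals and 8240913 in male IVF. In females the medians were 7098069 counts in naturals and 17941742.5 in IVF, so the order of the groups was reversed between the sexes. The part of depth in the changes was not tested. The log2 change ran with the GC content of the gene in both sexes, at a Spearman rho of -0.60 over all genes and -0.40 over the 26 members in males and 0.71 and 0.66 (31 members) in females, where genes share their libraries and are not independent. In the 5 other comparisons it was between -0.42 and 0.19 over all genes. The 8 hepatocyte markers summed to 80734 to 106474 CPM in male naturals and 101990 to 153083 CPM in male IVF, with 3 of 8 called. In females the sums were 178566 to 257501 CPM and 114684 to 135699 CPM, without overlap and with 4 of 8 called. The 6 macrophage markers summed to 78.1 to 119 CPM and 75.3 to 152 CPM in males, with 4 of 6 called, and 50.8 to 129 CPM and 95.8 to 181 CPM in females, with 1 called. The 6 erythroid markers summed to 269 to 508 CPM and 421 to 895 CPM in males (3 called) and to 456 to 754 CPM and 153 to 376 CPM in females, without overlap (2 called). The 6 stromal markers summed to 38.9 to 92.8 CPM and 19.3 to 43.6 CPM in males and to 31.6 to 89.0 CPM and 25.6 to 86.6 CPM in females, with 2 called in each sex. The part of cell makeup in the changes was not tested. Removing the GC trend kept 6 of the 10 calls in males (Meg3, Kcnq1ot1, Cd81, Gnas, Blcap and Zrsr1) and 5 of the 12 in females (Kcnq1ot1, Tssc4, Gnas, Mcts2 and Zrsr1). It added Copg2, Cdkn1c and H13 in males, which made 9 calls, and Cdkn1c in females, which made 6. With the mapping rate of each library as a covariate 4 of the 10 held in males (Ube3a, Kcnq1ot1, Slc22a18 and Dcn) and 2 of the 12 in females (Ube3a and Dcn). No member held its call in both sexes under both of these settings. The share of all genes called under these settings is not given here, so whether members lost calls more often than other genes cannot be told.

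Kcnq1ot1 had the largest change among the members tested in either sex in the edgeR fit, while with the GC trend removed Gnas and Cdkn1c, given below, changed more. Kcnq1ot1 is transcribed from the paternal chromosome 7 within Kcnq1 and silences its neighbours there. Male naturals read 5.03, 3.35, 5.08, 4.61 and 3.53 CPM and male IVF 10.6, 28.6, 24.1, 14.03 and 23.5 CPM. All IVF livers lay above all naturals (2.12 ± 0.28, adjusted p = 0.000105). Female naturals read 40.8, 13.8, 39.5, 17.0 and 26.5 CPM and female IVF 5.88 to 11.6 CPM with a median of 6.62. Here all IVF livers lay below all naturals (-1.82 ± 0.28, adjusted p = 0.000122). With the GC trend removed the changes were 1.48 (adjusted p = 0.00136) in males and -1.03 (adjusted p = 0.00574) in females. With the mapping rate as a covariate Kcnq1ot1 held its call in males and lost it in females (-0.70, adjusted p = 0.132). Its neighbours Tssc4, a factor of spliceosome assembly, and Slc22a18 went the other way in both sexes. The GC content is 59.5% for Tssc4 and 57.1% for Slc22a18 against 40.3% for Kcnq1ot1, and the changes ran with GC content as given above. Tssc4 is known as maternally expressed in placenta, and silencing by Kcnq1ot1 in liver was not tested. The RefSeq promoter windows of Tssc4 and Slc22a18 are shown with that of Kcnq1ot1, CG in capitals, since these genes of 1 cluster moved in opposite directions. The Kcnq1ot1 window (chr7:143296498-143296797, minus strand) holds 9 CG, that of Tssc4 (chr7:143069118-143069417, plus strand) 23 and that of Slc22a18 (chr7:143473539-143473838, plus strand) 2. None of them holds TGCCGC on either strand.
Kcnq1ot1: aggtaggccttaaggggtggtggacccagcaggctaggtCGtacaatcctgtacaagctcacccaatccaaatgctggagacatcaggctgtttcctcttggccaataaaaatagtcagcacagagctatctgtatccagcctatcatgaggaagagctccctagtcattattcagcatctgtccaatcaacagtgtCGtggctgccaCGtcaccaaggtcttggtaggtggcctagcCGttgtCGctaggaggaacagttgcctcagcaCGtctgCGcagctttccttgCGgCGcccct
Tssc4: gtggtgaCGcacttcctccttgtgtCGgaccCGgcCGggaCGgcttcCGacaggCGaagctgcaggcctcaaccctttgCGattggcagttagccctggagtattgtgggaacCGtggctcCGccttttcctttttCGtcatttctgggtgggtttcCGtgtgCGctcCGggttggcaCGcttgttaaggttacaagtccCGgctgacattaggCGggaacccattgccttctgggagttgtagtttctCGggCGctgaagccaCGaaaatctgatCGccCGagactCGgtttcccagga
Slc22a18: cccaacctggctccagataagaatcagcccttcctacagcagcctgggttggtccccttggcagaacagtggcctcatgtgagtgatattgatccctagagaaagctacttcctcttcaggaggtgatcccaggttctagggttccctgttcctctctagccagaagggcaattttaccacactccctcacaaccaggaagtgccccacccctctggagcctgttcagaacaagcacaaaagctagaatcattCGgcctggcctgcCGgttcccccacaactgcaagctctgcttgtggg

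Tssc4 read 16.9, 14.7, 10.4, 11.2 and 12.0 CPM in male naturals and 3.62, 1.24, 4.82, 5.41 and 6.58 CPM in male IVF (-1.48 ± 0.29, adjusted p = 0.00117). In females it read 1.22, 5.31, 5.65, 5.05 and 3.17 CPM in naturals and 9.89 to 19.2 CPM with a median of 14.6 in IVF (1.77 ± 0.28, adjusted p = 0.000112). Neither pair of groups overlapped, with IVF lower in males and higher in females. Slc22a18 read 70.5, 76.004, 78.1, 71.1 and 77.6 CPM in male naturals and 39.5, 28.6, 19.3, 31.96 and 54.5 CPM in male IVF (-1.01 ± 0.20, adjusted p = 0.00124), and 20.1, 30.5, 26.5, 31.2 and 27.0 CPM in female naturals and 47.5 to 105 CPM with a median of 58.5 in female IVF (1.35 ± 0.22, adjusted p = 0.000138). These groups were apart as well, in the same directions as Tssc4. With the GC trend removed neither was called in males (-0.70 and -0.35). In females Tssc4 was called at 0.86, and Slc22a18, at 0.58, lay just under the fold limit. Cdkn1c, the growth inhibitor of the cluster, was not called, at 0.76 ± 0.38 in males and -0.30 ± 0.28 in females. With the GC trend removed it was called at 1.56 (adjusted p = 0.00954) in males and -1.22 (adjusted p = 0.00975) in females. Its counts in male liver were low, with IVF library 3 at 0 and the other IVF livers at 2.49 to 2.81 CPM. Cd81, next to Tssc4, read 209.99, 190.1, 208, 196 and 211 CPM in male naturals and 148, 76.5, 84.4, 172 and 157 CPM in male IVF, apart and lower (-0.64 ± 0.21, adjusted p = 0.0253), a call held in 5 of 10 fits with a library left out. It was lost without natural library 1, 3 or 5 (adjusted p from 0.0516 to 0.0532) and, by the fold limit, without IVF library 2 or 3 (-0.50 and -0.54). In females it was apart and higher, at 131 to 170.2 CPM and 186 to 222 CPM, with a change of 0.44 ± 0.12, adjusted p = 0.00505 under the fold limit.

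**Figure D3:**
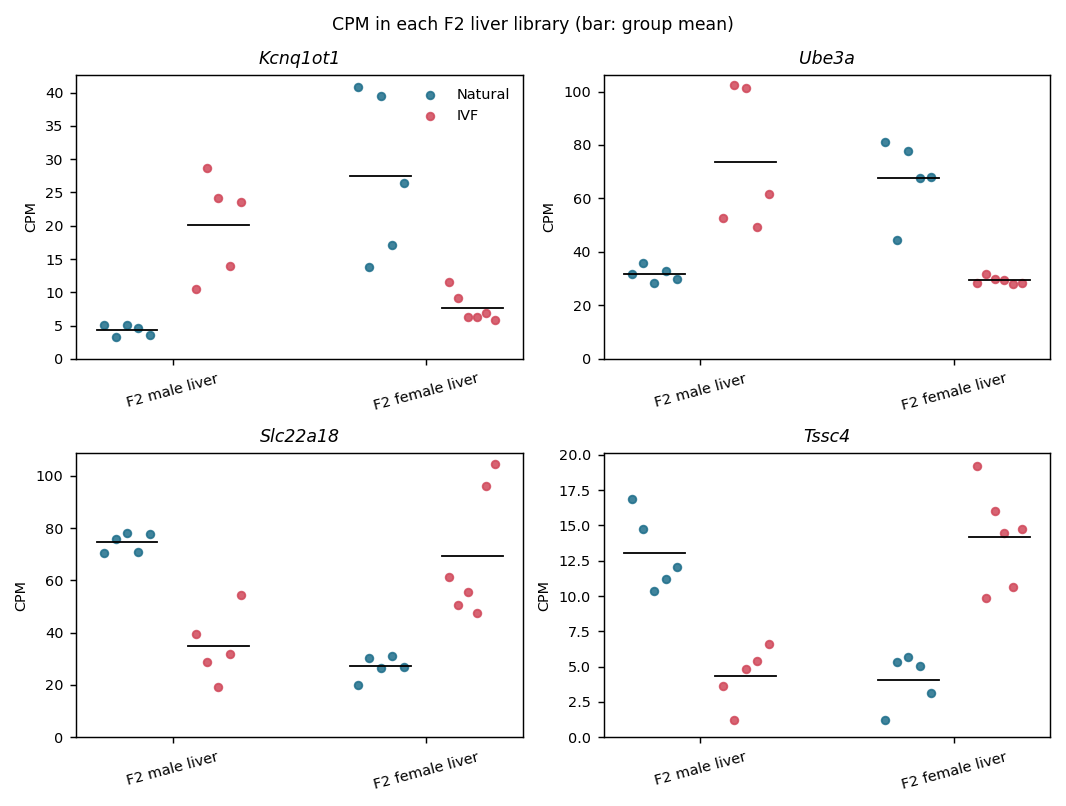
CPM of Kcnq1ot1, Ube3a, Slc22a18 and Tssc4 in each F2 liver library on linear axes, naturals and IVF of males and of females, with bars at group means. In each panel the groups of a sex do not overlap, and the direction from naturals to IVF in males is the opposite of that in females.

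Ube3a, the ubiquitin ligase of the Snrpn region on chromosome 7, read 31.7, 35.9, 28.5, 32.9 and 29.9 CPM in male naturals and 52.9, 103, 101, 49.3 and 61.7 CPM in male IVF (1.15 ± 0.21, adjusted p = 0.000811). In females it read 81.1, 44.4, 77.9, 67.8 and 67.9 CPM in naturals and 28.0 to 31.7 CPM with a median of 29.0 in IVF (-1.20 ± 0.14, adjusted p = 1.81e-05). The groups were apart in both sexes. Side by side, male naturals (28.5 to 35.9 CPM) stood near female IVF (28.0 to 31.7 CPM) and male IVF (49.3 to 103 CPM) near female naturals (44.4 to 81.1 CPM), levels from separate tables that were not tested against each other. The groups are those of the labels. An exchange of natural and IVF labels in 1 sex, which was not tested, would turn the sign of every liver change in that sex. With the GC trend removed neither change was called (0.32 in males, -0.24 in females). Dcn, the matrix proteoglycan decorin, read 66.5, 66.9, 76.2, 56.2 and 54.7 CPM in male naturals and 105, 165, 135, 108 and 97.9 CPM in male IVF (0.92 ± 0.18, adjusted p = 0.00110). Its female naturals read 187, 166, 192, 182 and 155 CPM and female IVF 65.7 to 94.8 CPM with a median of 85.1 (-1.07 ± 0.12, adjusted p = 1.74e-05). The groups were apart, higher after IVF in males and lower in females, and the call was lost with the GC trend removed (0.12 and -0.15).

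Gnas read 407, 405, 466, 443 and 449.9 CPM in male naturals and 533, 1083, 1027, 520.1 and 646 CPM in male IVF (0.81 ± 0.21, adjusted p = 0.00889). In female naturals it was at 969.8, 392, 699, 542 and 622 CPM and in female IVF at 341 to 372 CPM with a median of 359.9 (-0.85 ± 0.18, adjusted p = 0.00105). Again the groups were apart and the directions opposed, and with the GC trend removed the changes were larger, at 1.73 and -1.68. With the mapping rate as a covariate Gnas was not called, at 0.61 (adjusted p = 0.119) in males and -0.07 (adjusted p = 0.842) in females. Zrsr1, a splicing-factor retrogene within an intron of Commd1, read 19.04, 22.9, 26.4, 22.2 and 17.8 CPM in male naturals and 29.9, 78.4, 106, 37.7 and 28.1 CPM in male IVF (1.20 ± 0.32, adjusted p = 0.0101). Female naturals were at 45.4, 25.8, 42.1, 23.8 and 33.6 CPM and female IVF at 13.5 to 18.9 CPM with a median of 15.6 (-1.10 ± 0.18, adjusted p = 0.000133). It followed the same pattern, apart in both sexes. Under that covariate Zrsr1 was not called either, at 0.98 (adjusted p = 0.139) in males and -0.55 (adjusted p = 0.119) in females. Meg3 and Blcap were called in male liver and not in female liver, with the sex difference tested below. Meg3 read 5.09, 4.38, 5.89, 5.48 and 3.37 CPM in naturals and 8.51, 13.7, 9.64, 3.81 and 21.9 CPM in IVF, overlapping through IVF library 4 (1.25 ± 0.37, adjusted p = 0.0157). Without IVF library 5, the highest, it was not called (0.72 ± 0.35, adjusted p = 0.124). Blcap, a small protein of apoptosis, read 25.6, 28.7, 29.3, 22.002 and 27.9 CPM in naturals and 16.4, 11.2, 0, 15.6 and 15.9 CPM in IVF, all below the naturals, the 0 being that of the shallowest library (-0.92 ± 0.25, adjusted p = 0.0109).

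The remaining calls of the female liver were lower levels after IVF. Sgce, a sarcoglycan, read 6.71, 2.73, 2.26, 2.52 and 4.78 CPM in naturals and 1.24 to 2.02 CPM with a median of 1.28 in IVF (-1.42 ± 0.33, adjusted p = 0.00238). Mcts2 read 7.92, 4.66, 9.60, 8.83 and 6.46 CPM and 2.80 to 4.65 CPM with a median of 3.69 (-1.03 ± 0.23, adjusted p = 0.00175). Inpp5f, an inositol phosphatase, read 29.0, 25.8, 29.6, 24.9 and 31.6 CPM and 16.3 to 22.4 CPM with a median of 18.1 (-0.60 ± 0.13, adjusted p = 0.00103), a change close to the fold limit that was called in 6 of 11 fits with a library left out and lay between -0.58 and -0.53 without natural library 3 or 5 or IVF library 3, 4 or 6. These groups did not overlap, while those of Slc22a3 and Plagl1 did. Slc22a3, an organic cation transporter, was at 3.66, 2.90, 11.9, 4.42 and 2.87 CPM in naturals and 1.86 to 3.22 CPM with a median of 2.65 in IVF (-0.95 ± 0.36, adjusted p = 0.0391). Without natural library 3 the change was -0.42 ± 0.28, adjusted p = 0.232, and without natural library 4 or IVF library 1, 2, 5 or 6 the adjusted p was 0.0526 to 0.0776. Plagl1 was low, at 0.610, 0.322, 1.69, 2.52 and 1.74 CPM in naturals and 0.387 to 0.654 CPM with a median of 0.551 in IVF (-1.34 ± 0.48, adjusted p = 0.0301), and held in 4 of 9 such fits, with adjusted p from 0.0522 to 0.114 without natural library 3, 4 or 5 or IVF library 3 or 5.

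Among the fixed members not yet given, male liver changes were -0.19 ± 0.16 for Igf2r, 0.16 ± 0.29 for Peg3, 0.59 ± 0.47 for Mest and -0.15 ± 0.35 for Grb10, with adjusted p from 0.354 to 0.776. H19, Igf2, Dlk1 and Plagl1 were too low for the test there, none of them above 4.82 CPM in any male liver. In female liver the changes were 0.28 ± 0.78 for H19, 0.61 ± 0.62 for Igf2, 0.09 ± 0.12 for Igf2r, -0.53 ± 0.45 for Peg3, -0.22 ± 0.40 for Mest, -0.53 ± 0.55 for Meg3 and 0.38 ± 0.51 for Grb10, with adjusted p from 0.355 to 0.787, and Dlk1 was not tested. In a fit of all livers, added after the opposite directions had been seen, the IVF effect differed between the sexes for 15 of 32 members, beside 52.9% of 13073 genes. The largest difference, female minus male, was that of Kcnq1ot1 at -3.92 ± 0.41 (adjusted p = 2.31e-08). Sex and the table of its livers cannot be told apart in it.

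**Figure D4:**
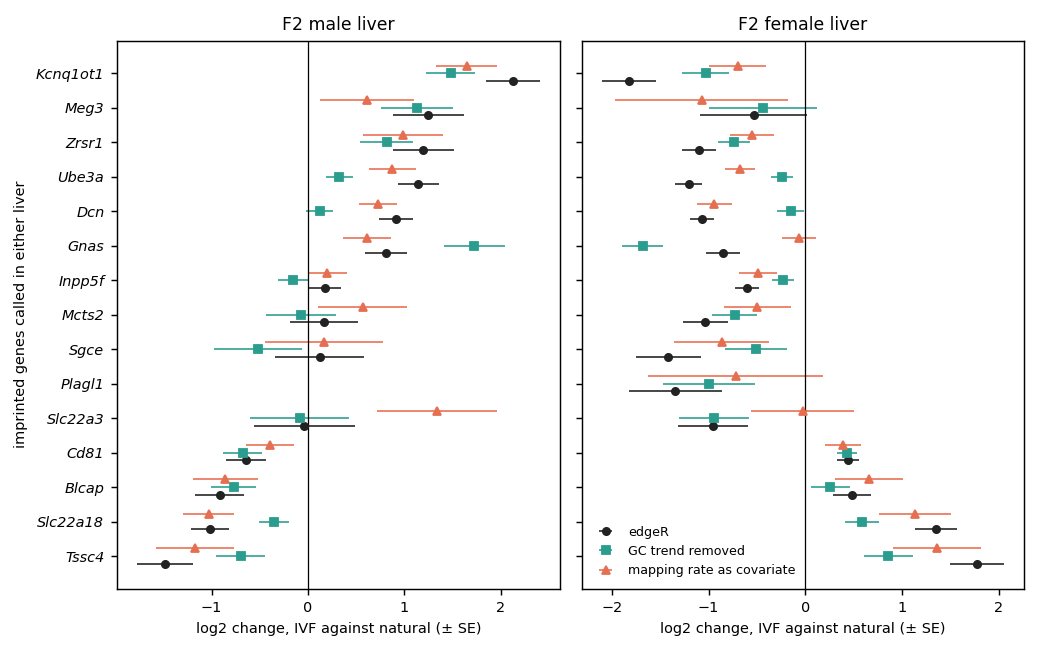
Log2 change from naturals to IVF (± SE) of the 15 imprinted genes called in either F2 liver, for males and females, under the edgeR fit, with the GC trend removed and with mapping rate as a covariate. Most genes lie on opposite sides of 0 in the sexes under the edgeR fit, and Kcnq1ot1, Gnas and Zrsr1 stay past the threshold in both sexes with the GC trend removed. With mapping rate as a covariate Kcnq1ot1 is called in males only, and Gnas and Zrsr1 in neither sex.

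In the F2 ovary 0 of 37 members were called by edgeR or DESeq2, beside 0% of 16502 genes. At an unadjusted p under 0.05 there were 2 members, against 10.6% of all genes, and all 37 changed by less than 0.5. DESeq2 called 63 genes higher and 27 lower over the whole table. H13, a signal peptide peptidase gene, read 132, 132, 136 and 149.9 CPM in the naturals and 174, 161, 193, 157 and 167 CPM in IVF. It was the 1 member whose groups did not overlap, beside 3.64% of all genes (0.31 ± 0.08, adjusted p = 0.340), and DESeq2 gave it an adjusted p of 0.0330 with a change under 1.5-fold. The fixed members changed by -0.38 ± 0.56 for H19, -0.04 ± 0.28 for Igf2, 0.06 ± 0.10 for Igf2r, 0.18 ± 0.24 for Peg3, -0.11 ± 0.26 for Mest, -0.19 ± 0.18 for Meg3, -0.30 ± 0.43 for Dlk1, -0.20 ± 0.20 for Cdkn1c, -0.07 ± 0.18 for Kcnq1ot1, -0.36 ± 0.21 for Plagl1 and -0.04 ± 0.12 for Grb10, with adjusted p from 0.555 to 0.965. H19 had the widest SE of them, at 15.6, 12.2, 59.7 and 64.9 CPM in the naturals and 24.9, 25.1, 13.8, 36.0 and 46.6 CPM in IVF.

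**Figure D5:**
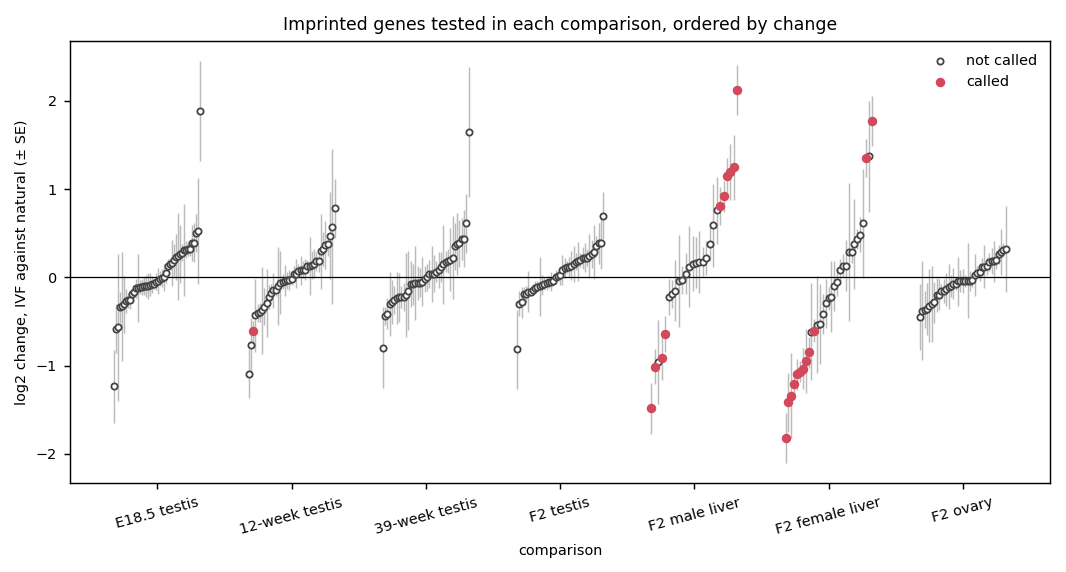
Log2 change from naturals to IVF (± SE) of every tested imprinted gene in the 7 comparisons, filled red where called. In the testes and ovary the points gather around 0 with Asb4 at 12 weeks as the 1 called gene, and in the livers 10 (male) and 12 (female) genes are called.

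Ratios of neighbours that are used from opposite parents address whether such genes shifted against each other. The log2 ratio of counts within a library was taken for 4 pairs and compared between naturals and IVF by two-sided exact permutation tests, whose smallest possible p was 0.00126 to 0.00794. Of 19 tests over the 7 comparisons, 4 had an unadjusted p under 0.05. After Benjamini-Hochberg adjustment 0 passed, but only in F2 testis and female liver could a single test have done so, and the other comparisons were too small. In female liver Cdkn1c over Kcnq1ot1 was -2.40 ± 0.34 (SD, n = 5) in naturals and -0.95 ± 0.53 (n = 6) in IVF (exact permutation p = 0.00649, adjusted p = 0.123). The ratio was -1.55 ± 0.58 (SD, n = 5) in naturals and -3.06 ± 0.93 (n = 5) in IVF in male liver, a difference of the other sign (exact permutation p = 0.0238, adjusted p = 0.158), and in 12-week testis it was -1.61 ± 0.29 (SD, n = 5) in naturals and -1.06 ± 0.32 (n = 5) in IVF (exact permutation p = 0.0317, adjusted p = 0.158). These ratios were not corrected for GC content, which is 59.4% for Cdkn1c and 40.3% for Kcnq1ot1. With the GC trend removed, as given above, both genes were higher after IVF in male liver and both lower in female liver. Meg3 over Dlk1 at E18.5 was -0.84 ± 1.75 (SD, n = 4) in naturals and 0.21 ± 0.12 (n = 6) in IVF (exact permutation p = 0.0333, adjusted p = 0.158), with the natural minimum of -3.46 set by library 1. H19 over Igf2 at E18.5 was 0.94 ± 0.80 (SD, n = 4) in naturals and 1.13 ± 0.21 (n = 6) in IVF (exact permutation p = 0.595, adjusted p = 0.746), where natural library 2 gave the maximum of 2.11. Zim1 over Peg3 could be tested at E18.5 and in ovary, with differences of 0.00 and -0.33 and exact permutation p of 0.971 and 0.143.

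The spread between libraries was described as well, as the SD of log2 CPM in IVF over that in naturals. It was larger in IVF for 13 of 44 members at E18.5 (22.8% of all genes), 26 of 39 at 12 weeks (61.7%), 11 of 38 at 39 weeks (27.3%) and 24 of 39 in F2 testis (63.2%). It was larger for 25 of 26 in male liver (95.2%), 6 of 31 in female liver (28.8%) and 24 of 37 in ovary (58.7%). At 39 weeks the count was 18 without natural library 3, and in female liver 10 without natural library 4. In each comparison the members lay on the same side of an even split as all genes did. Depth differed between naturals and IVF at E18.5 and in the livers, as given above, and counting error is larger in shallow libraries. The counts of larger spread therefore do not separate IVF from depth there.

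A further list held 20 genes that keep, set or remove imprints. It had 0 calls for IVF against naturals in the testes and the ovary, out of 19 or 20 tested in each, by edgeR. In male liver 4 of 13 were called, beside 31.1% of all genes, with Arid4a (1.56 ± 0.23), Arid4b (1.17 ± 0.26) and the histone demethylase Kdm1b (0.63 ± 0.18) higher and Trim28, the corepressor that ZFP57 brings to imprinted regions, lower (-0.80 ± 0.19). In female liver 6 of 14 were called, beside 39.4% of all genes, with Trim28 higher (0.77 ± 0.17) and 5 lower, among them Arid4a (-1.53 ± 0.17), Arid4b (-1.69 ± 0.19) and Kdm1b (-0.77 ± 0.15). With the GC trend removed Arid4a held its call in both sexes and Arid4b in females. Trim28 and Kdm1b lost it in both sexes (Trim28 with a turn of sign, at 0.08 and -0.17), Arid4b in males, and the other calls of the female liver, Smchd1 and Tet2, were lost as well. From E18.5 to 12 weeks 13 of the 20 fell and 1 rose, where 35.7% and 41.7% of all genes did. Of 40 other imprinted genes, 19 of 30 tested fell and 7 rose over that time. After IVF their calls were 1 of 29 in F2 testis, 4 of 16 in male liver and 5 of 18 in female liver, beside 0.914%, 31.1% and 39.4% of all genes, and 0 elsewhere. In F2 testis that was Nespas, an antisense RNA of the Gnas locus, at 4.72 to 7.53 CPM in naturals and 2.23 to 5.47 CPM in IVF (-0.77 ± 0.18, adjusted p = 0.0295). In male liver Jade1 (1.00 ± 0.22) and Cobl (0.95 ± 0.27) were higher and the cholesterol synthesis enzyme Dhcr7 (-1.62 ± 0.22) and Trappc9 (-0.75 ± 0.26) lower. In female liver Trappc9 was higher (0.91 ± 0.27), and Jade1 (-1.30 ± 0.14), Pon3 (-0.73 ± 0.13) and Pon2 (-0.71 ± 0.15) were among those lower. With the GC trend removed Jade1 held its call in both sexes and Dhcr7 and Cobl theirs, whereas Trappc9 lost it in males (-0.33, adjusted p = 0.361) and females (0.37, adjusted p = 0.285), Pon3 lost it (-0.27, adjusted p = 0.0817) and Pon2 changed sign (0.15, adjusted p = 0.476). With the mapping rate as a covariate Trappc9, Cobl, Pon2 and Pon3, and Jade1 in males, were not called.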

How the data were processed

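RNA-Seq of 72 libraries was used, grouped by the conditions in their labels. Per the labels, stranded mRNA libraries were made, and the submitters' processing notes name Trimmomatic 0.32, STAR 2.3.0e, featureCounts 1.5.0, DESeq2 and build mm10. The deposited values are whole read counts per gene symbol, without normalization by the authors. The strand setting of the counting is not given in the sources used here. Of the low counts, 60.0% to 94.3% per library were even, as counting both mates of a pair would give, so the counts may hold fewer independent fragments than reads. Depth was 543745 to 90441392 counts per library, and counting error is largest in the shallowest.

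Each table was fitted on its own in edgeR 4.0.16 (R 4.3.3). Genes too low in every group were dropped by filterByExpr, library sizes were scaled by TMM, and conception was tested two-sided with the robust quasi-likelihood method. p-values were adjusted by Benjamini-Hochberg over all genes tested, and a gene was called at an adjusted p under 0.05 and over 1.5-fold (0.585 on the log2 scale). Fold changes carry the SE derived from the test. Natural groups of different tables were joined by symbol for age and tissue. Pair ratios used counts plus 0.5 and a mean of at least 10 counts. Log2 CPM used a prior count of 2. GC content and transcript lengths were those of the longest GENCODE transcript of each symbol, and promoters came from RefSeq tables on GRCm38.p6. Alternatives were DESeq2 1.42.0, its size factors, other filters, thinned or halved counts, removal of the GC trend, the mapping rate listed in the study's supplement as a covariate, a replicate block and each library left out. The fits were tested on simulated counts. Members, lists and tests were chosen with earlier results of these data known. Values are given for every member called and for 12 fixed members (H19, Igf2, Igf2r, Peg3, Mest, Snrpn, Meg3, Dlk1, Cdkn1c, Kcnq1ot1, Plagl1 and Grb10), for members whose groups did not overlap, and for at most 3 genes per direction of each other list. DNA methylation was not analysed here.

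Replicate numbers did not pair the libraries. In no comparison did all libraries of the same number deviate together, with correlations of their deviations from -0.23 to 0.30, so the fits carry no block.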

Additional observations from a re-analysis of the deposited data

Results flagged for a closer look

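In 10 of the 182 sets of libraries examined (5.49%), 1 library stood far from the rest of its group, where chance gives about 1 in 20. At E18.5 these were Igf2 at 404 CPM in natural library 2 (the others 1229.8 to 1284), Mest at 375 CPM in natural library 2 (the others 423 to 432) and Meg3 at 113 CPM in natural library 1 (the others 1131 to 1185). In adult testis they were Igf2 at 13.6 CPM in IVF library 2 of the 12-week testis (the others 8.08 to 9.55), H19 at 3.31 CPM in natural library 2 of the 39-week testis (the others 1.82 to 2.07), Meg3 at 4.13 CPM in natural library 4 of the 39-week testis (the others 10.8 to 12.0) and H19 at 1.89 CPM in natural library 3 of the F2 testis (the others 0.885 to 1.16). In the livers they were Cdkn1c at 0 CPM in IVF library 3 of the F2 male liver (the others 2.49 to 2.81), Slc22a3 at 11.9 CPM in natural library 3 of the F2 female liver (the others 2.87 to 4.42) and Sgce at 2.02 CPM in IVF library 5 of the F2 female liver (the others 1.24 to 1.31). Of these, the values of Igf2, Meg3 and Slc22a3 decided calls or moved changes as the report gives.

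The effect of IVF differed between the livers of females and males for 15 members, by an interaction term of sex and conception fitted over all livers and added after the values were seen. The log2 differences, female minus male effect, were below 0 for Sgce (-1.52), Ube3a (-2.33), Meg3 (-1.78), Cdkn1c (-1.06), Kcnq1ot1 (-3.92), Gnas (-1.64), Mcts2 (-1.20), Zrsr1 (-2.28), Dcn (-1.97) and Inpp5f (-0.77). They were above 0 for Kcnq1 (2.72), Slc22a18 (2.37), Tssc4 (3.26), Cd81 (1.09) and Blcap (1.41). Adjusted p-values ran from 2.23e-08 to 0.0460, and over all genes the share that differed was 52.9%.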

How the results depend on the processing

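The count of called members fell from 1 to 0 in 12-week testis and from 12 to 6 in female liver with the GC trend removed. With the mapping rate as a covariate it was 4 in male liver and 2 in female liver. With at least 10 counts required in every library it was 6 of 12 tested in male liver, 20 of 25 for testis against liver and 9 of 19 for ovary against liver, where fewer genes were tested. The number of members with a larger spread in IVF was 11 of 12 in male liver under that filter and 11 of 13 with counts thinned to the smallest library, and 10 of 24 in female liver with thinned counts. Shares of all genes under the settings of this paragraph are not given here, so its counts cannot be set against those of other genes. No called member changed direction in these refits, apart from the 6 of ovary against liver whose CPM, unscaled between the tissues, lay the other way.

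With 1 library left out at a time, called members numbered 0 to 1 at E18.5 (1 without natural library 2), 0 to 2 at 12 weeks (2 without IVF library 1, when Nnat is called as well), 0 to 0 at 39 weeks, in F2 testis, in ovary and for age in the adult, 9 to 10 in male liver, 9 to 14 in female liver, 35 to 38 for maturation, 30 to 32 for testis against liver and 27 to 29 for ovary against liver. Members with a larger spread in IVF numbered 11 to 19, 22 to 31, 11 to 18, 18 to 26, 24 to 26, 5 to 10 and 22 to 26 in the order E18.5, 12 weeks, 39 weeks, F2 testis, male liver, female liver and ovary.

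A replicate block, by numbers that do not pair the libraries, gave 9 called members in male liver and 9 in female liver, 37, 0, 31 and 27 in the age and tissue comparisons, and the same counts as without it in the testes (0, 1, 0 and 0) and ovary (0). Of single genes' changes under the other settings, 1170 kept their side of the threshold, 46 lost it, 7 gained it and 19 values moved. In 3 pairs of libraries (natural 1 and 2 of 39-week testis, natural 1 and 2 and IVF 3 and 4 of F2 testis) counts differed little beyond counting noise, and summing each pair, chosen after the data were seen, changed no member's call.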

Other observations

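Slc22a3, chosen here after its values were seen, was high in single adult testis libraries of both groups. At 12 weeks naturals read 32.1, 4.91, 4.10, 5.81 and 3.09 CPM and IVF 5.21, 37.1, 21.0, 7.60 and 4.69 CPM. At 39 weeks naturals read 7.47, 6.54, 5.47 and 1.38 CPM and IVF 37.2, 35.4, 6.35, 3.49, 7.18 and 7.85 CPM. Its neighbour Igf2r did not share this pattern, at 26.0 to 36.2 CPM and 27.2 to 30.3 CPM in the same 12-week groups and 18.1 to 29.4 CPM and 14.5 to 27.7 CPM at 39 weeks.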
